A study of Mus musculus with 4 samples.

Results

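Of the 16051 genes in the deposited expression table, 9 encode the secreted ligands described here. They are the CC chemokines Ccl2 and Ccl7, the CXC chemokines Cxcl1, Cxcl5, Cxcl10 and Cxcl12, the CX3C chemokine Cx3cl1, the macrophage colony-stimulating factor Csf1 and the interleukin Il6. Members were taken by gene symbol, and all 9 had a row. The libraries are mRNA sequencing of 3T3-L1, a mouse embryonic fibroblast line of NIH Swiss origin that forms adipocytes in culture and that was differentiated with isobutyl-methylxanthine, dexamethasone and insulin before treatment in all groups. In the DMSO group (RNC), which the sample labels call untreated and the paper calls DMSO, cells received the vehicle for 48 h, and in the risperidone group (RIS) they received 100 μM of risperidone, an atypical antipsychotic, for 48 h. Each group had 2 libraries, and RNA from 3 cultures was pooled for each library, so p-values measure the spread between pools and not between single cultures. The labels also name an extraction from retina, which the paper does not mention.

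Total estimated counts lay between 15883712 and 16374119 per library. Against the name preadipocyte or adipocyte, marker genes gave a mixed picture. Of 12 adipocyte markers, 4 had a mean of at least 1 FPKM (fragments per kilobase of transcript, scaled to the mapped reads of the library), namely Lpl, Fabp4, Plin4 and Pparg, while Adipoq, the gene of adiponectin, lay between 0 and 0.06 FPKM and Lep between 0 and 0.02 FPKM. Of 12 preadipocyte and fibroblast markers, 10 had a mean of at least 1 FPKM, with summed levels of 1293 to 1306 FPKM with DMSO and 1522 to 1549 FPKM with risperidone. Without Col1a1, a collagen gene that rose from 374 ± 8.12 to 694 ± 28.5 FPKM (SD, n = 2), the sum was 924 to 926 FPKM in the DMSO libraries and 834 to 848 FPKM in the others. Of 14 macrophage markers, 10 were in the table and 3 had a mean of at least 1 FPKM (Cd14, Cd68 and Cd74), while Ptprc lay at 0 to 0.04 FPKM, Csf1r at 0.03 to 0.09 FPKM and Itgam at 0 to 0.01 FPKM. Fcgr1, a high-affinity Fc receptor on that list, was at 1.59 and 1.77 FPKM with DMSO and at 0 and 0.03 FPKM with risperidone. Risperidone replicate 2 stood apart, since the 16 kidney markers summed to 235 FPKM there and to 4.36 to 6.74 FPKM in the other libraries, and values without that library are given below.

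Chemokines are small secreted proteins that draw leukocytes along a gradient, and their families are named after the spacing of the first cysteines. CCL2 and CCL7 bring in monocytes through the receptor CCR2, CXCL1 and CXCL5 act on neutrophils through CXCR2, CXCL10 is an interferon-induced ligand of CXCR3, and CXCL12 is a stromal ligand of CXCR4. CX3CL1 is made as a membrane protein and cut free by the proteases ADAM10 and ADAM17. CSF1 keeps macrophages alive through CSF1R, and IL-6 signals through IL6RA and the shared subunit gp130. Preadipocytes and other stromal cells of adipose tissue make many of these ligands, and Ccl2, Cxcl1 and Il6 are well-known targets of the transcription factor NF-κB.

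Csf1 was by far the most abundant of the 9 transcripts in every library, and Cxcl10 the least. Ordered by mean FPKM, a scale that corrects for transcript length, the DMSO libraries gave Csf1 (201 FPKM), Cxcl1 (63.9 FPKM), Cxcl12 (61.6 FPKM), Ccl2 (53.8 FPKM), Ccl7 (29.5 FPKM), Cxcl5 (19.2 FPKM), Cx3cl1 (1.01 FPKM), Il6 (0.305 FPKM) and Cxcl10 (0.130 FPKM). Cxcl1 and Cxcl12 were neighbours whose libraries overlapped, from 62.6 to 65.3 FPKM and from 58.8 to 64.5 FPKM. With risperidone Ccl7 moved from the 5th to the 2nd place (40.3 FPKM), ahead of Cxcl12 (34.97 FPKM), Cxcl1 (29.8 FPKM) and Ccl2 (22.0 FPKM). In that group the ranges of Cxcl12 (32.5 to 37.5 FPKM) and Cxcl1 (26.0 to 33.5 FPKM) overlapped. Il6, Cx3cl1 and Cxcl10 had a mean under 1 FPKM over the 4 libraries and did not pass the limit for testing, so 6 of the 9 were tested.

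**Figure D1:**
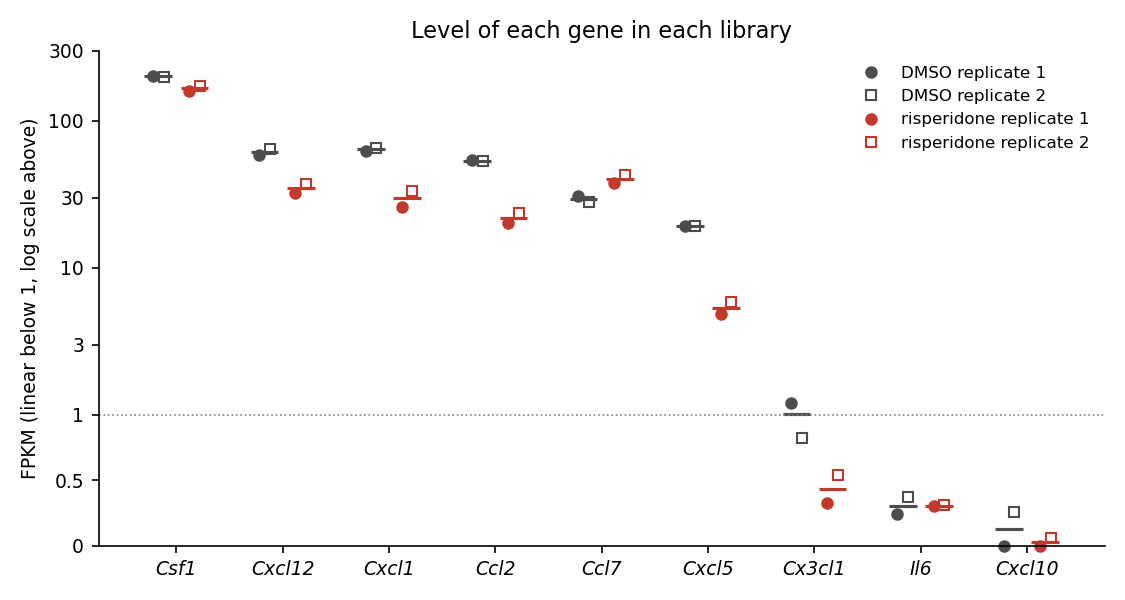
FPKM of each gene (horizontal axis, ordered by mean over the 4 libraries) in each library, with filled circles for replicate 1, open squares for replicate 2 and a line at the mean of the 2 libraries of a group; the vertical axis is linear below 1 FPKM (dotted line) and logarithmic above. Risperidone points lie below DMSO points for Csf1, Cxcl12, Cxcl1, Ccl2, Cxcl5 and Cx3cl1, above them for Ccl7, and among them for Il6 and Cxcl10.

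To ask whether risperidone altered these transcripts, the rounded counts of the 10243 genes averaging 1 FPKM or more over the 4 libraries were compared by the quasi-likelihood F-test of edgeR, with Benjamini-Hochberg adjustment over those genes. Fold changes are given as log2 of risperidone over DMSO, each with its standard error (SE). All 6 tested members changed at an adjusted p under 0.05, with 5 lower and 1, Ccl7, higher. The treatment moved much of the transcriptome, and 64.3% of all tested genes passed this threshold, 32.2% lower and 32.1% higher, so passing the threshold alone does not set the members apart. In limma on log2(TPM + 1), where the median of all genes was -0.22, the split of all genes was 1536 higher and 5292 lower in place of 3287 and 3303. Library size alone gave 2501 and 4093. A log2 fold change of -1 or lower was reached by 3 of the 6 (Cxcl5, Ccl2 and Cxcl1) and by 3.91% of all tested genes, and 0 of the 6 reached 1 or higher, as 2.61% of all genes did. In either direction the share was 6.52%. The median log2 fold change was -0.84 over the 6 members and 0.00044 over all tested genes. FPKM values did not overlap between the groups for any of the 6 members, which also held for 82.2% of all tested genes. In these bulk libraries, fewer cells of a type and less RNA per cell cannot be told apart.

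**Figure D2:**
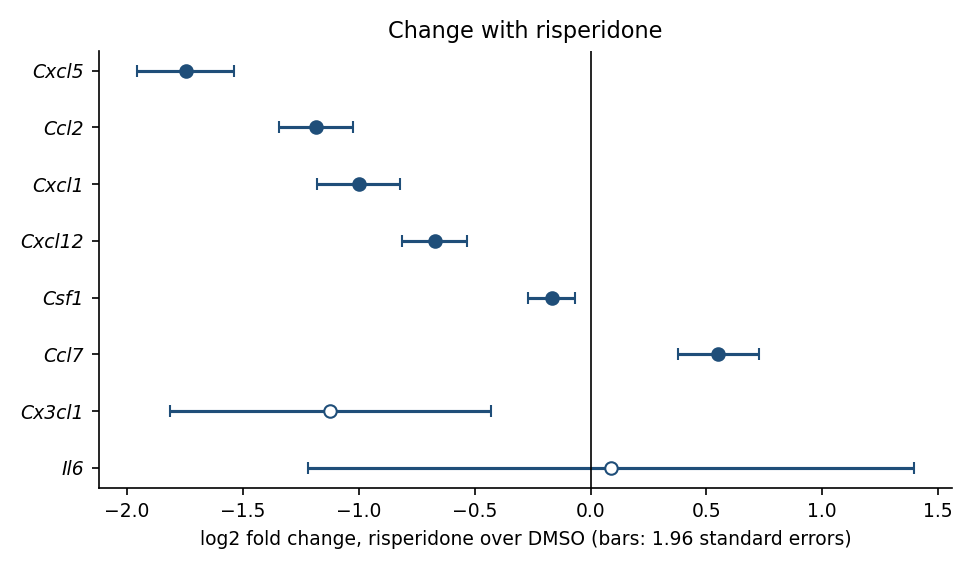
Log2 fold change of risperidone over DMSO (horizontal axis) from edgeR, with bars for the normal-approximation 95% interval of each estimate. Filled points are the 6 tested genes and open points are genes under 1 FPKM, fitted without a filter. Cxcl5 lies furthest to the left at -1.75, Ccl7 to the right of 0 at 0.55, and the bar of Il6 spans 0, while Cxcl10, with 0 to 4 counts, is not drawn.

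Ccl2 and Ccl7, close relatives that share CCR2, moved in opposite directions. Ccl2 (NCBI Gene 20296) had 595 and 570 counts with DMSO and 222 and 258 with risperidone. Its level was 54.2 and 53.3 FPKM against 20.3 and 23.8 FPKM, so both risperidone libraries lay under 0.5 of either DMSO library. Ccl2 fell 2.27-fold (log2 fold change -1.18, SE 0.0822, adjusted p = 5.62e-07 in edgeR), and 2.38% of the tested genes had a lower log2 fold change. For Ccl7 (NCBI Gene 20306) the counts were 336 and 299 with DMSO and 408 and 464 with risperidone. These correspond to 30.8 and 28.2 FPKM against 37.5 and 43.1 FPKM, with both risperidone libraries above both DMSO libraries. Ccl7 rose 1.47-fold (log2 fold change 0.55, SE 0.0887, adjusted p = 0.000254 in edgeR). Ccl7 was at 0.43 in limma on log2(FPKM + 1) and at 0.30 on log2(TPM + 1), where the median of all genes was -0.22.

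The balance between the pair thereby turned over. Ccl2 was at 1.76 and 1.89 times the FPKM of Ccl7 in the DMSO libraries and at 0.540 and 0.552 times in the risperidone libraries. Replicates of a group differed little in this ratio, whose mean was 1.83 ± 0.0949 (SD, n = 2) with DMSO and 0.546 ± 0.00835 (SD, n = 2) with risperidone. An exact permutation test, two-sided, of 2 libraries against 2 gave p = 0.333 for this ratio and for the other 2 quantities tested in the same way (the ratio of Cxcl1 to Cxcl5 and the summed chemokine level), which is the smallest p this design allows and stays 0.333 after Benjamini-Hochberg adjustment over the 3. Summed over the pair, 85.0 and 81.5 FPKM with DMSO became 57.8 and 66.8 FPKM with risperidone.

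The 2 genes lie next to each other on chromosome 11 (GRCm38.p6, the build that the submitters' processing notes name). Ccl2 spans chr11:82035577-82037452 and Ccl7 chr11:82045712-82047525, with 8259 bases between the annotated genes, and each has 3 exons and 1 coding transcript in GENCODE M21. Further along the same cluster, Ccl11 had 1 and 1 counts with DMSO and 0 and 0 with risperidone. Ccl8 had 5 and 2 counts against 12 and 3, and Ccl1 had 1 count in DMSO replicate 2 and 0 elsewhere. Ccl12 was not analysed here. Ccl2 and Ccl7 were thus the expressed chemokines of this stretch among those measured, with no other above 12 counts in a library. Since CC chemokines resemble each other in sequence, reads shared between copies could be split in counting. All 36 counts of the 9 members, those of Ccl2 and Ccl7 included, were whole numbers. Over all genes, 91.2% to 91.7% of the counts of a library were whole, and splitting itself was not tested.

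Cxcl5 and Cxcl1, ligands of the neutrophil receptor CXCR2, were both lower with risperidone, and Cxcl5 showed the largest fall of the 6 tested members. Cxcl5 (NCBI Gene 20311) had 477 and 466 counts with DMSO and 120 and 143 with risperidone. In FPKM these were 19.2 and 19.3 against 4.84 and 5.85, so the DMSO libraries were nearly equal and the risperidone libraries far below them. The fall was 3.36-fold (log2 fold change -1.75, SE 0.106, adjusted p = 2.44e-07 in edgeR), and 0.625% of the tested genes had a lower value. Cxcl1 (NCBI Gene 14825) had 840 and 852 counts with DMSO and 348 and 444 with risperidone, the pair of risperidone libraries differing more than the DMSO pair. Its level fell from 63.9 ± 1.90 to 29.8 ± 5.32 FPKM (SD, n = 2), a log2 fold change of -1.001 (SE 0.0915, adjusted p = 4.18e-06 in edgeR). That places Cxcl1 at the edge of the -1 limit, and it changed by -0.83 without risperidone replicate 1 and -1.19 without risperidone replicate 2.

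The 2 CXCR2 ligands shifted relative to each other. Cxcl1 was at 3.27 and 3.39 times the FPKM of Cxcl5 with DMSO and at 5.38 and 5.73 times with risperidone. The groups did not overlap, with means of 3.33 ± 0.0855 and 5.55 ± 0.253 (SD, n = 2). Both genes belong to the CXC cluster of chromosome 5, Cxcl5 at chr5:90759298-90761625 and Cxcl1 at chr5:90891245-90893121 (GRCm38.p6), and each has 4 exons. Cxcl3 was not analysed here. Ppbp, Pf4 and Cxcl15, which also lie between them, had at most 5 counts in any library, and Cxcl2, the next gene after Cxcl1, had 1 count in DMSO replicate 1 and 0 elsewhere. Outside the chemokines, Mthfd2l, a folate enzyme gene downstream of Cxcl2, was higher with risperidone (log2 fold change 0.54, SE 0.134). Ereg, which encodes the EGF-family ligand epiregulin, was lower (-0.66, SE 0.175).

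Cxcl12, the stromal chemokine that retains CXCR4-bearing cells, fell less than the inflammatory ligands Ccl2, Cxcl1 and Cxcl5. Cxcl12 (NCBI Gene 20315, chr6:117168535-117181368) had 1779 and 1896 counts with DMSO and 1013 and 1148 with risperidone. FPKM values were 58.8 and 64.5 against 32.5 and 37.5, and the highest risperidone library was well below the lowest DMSO library. Cxcl12 fell 1.59-fold (log2 fold change -0.67, SE 0.0719, adjusted p = 1.31e-05 in edgeR). The annotation holds 3 coding transcripts of Cxcl12, which counts per gene do not separate.

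Csf1, the abundant macrophage growth factor, changed least among the tested members. Csf1 (NCBI Gene 12977, chr3:107741048-107760469, minus strand) had 12157 and 11493 counts with DMSO and 9558 and 10162 with risperidone. Its level of 203 and 198 FPKM against 161 and 173 FPKM placed it 352nd of all genes by mean FPKM. Csf1 fell 1.12-fold (log2 fold change -0.17, SE 0.0520, adjusted p = 0.0152 in edgeR), and 35.5% of the tested genes had a lower value. Without DMSO replicate 1 the same test no longer called Csf1 (log2 fold change -0.15, adjusted p = 0.129 in edgeR), the highest p of its 14 alternatives, which reached down to 0.000240. In limma it was at -0.27 on log2(FPKM + 1) and at -0.41 on log2(TPM + 1), against a median of -0.22 over all genes on the latter. With the offset for gene length Csf1 was at -0.106, the smallest fall of its 14 alternatives. GENCODE M21 holds 4 coding transcripts of Csf1, with 6 to 9 exons, and the counts do not tell them apart.

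Since Csf1 fell little and Ccl2 fell 2.27-fold, Csf1 rose from 3.75 and 3.72 times the FPKM of Ccl2 to 7.92 and 7.28 times. The 7 chemokines together came to 227 and 232 FPKM in the DMSO libraries and 121 and 144 FPKM in the risperidone libraries, 42.0% lower on average. Within this sum the share of Ccl7 was 13.6% and 12.2% with DMSO and 30.9% and 29.8% with risperidone. That of Ccl2 was 23.9% and 23.03% against 16.7% and 16.5%, and that of Cxcl5 was 8.45% and 8.32% against 3.98% and 4.06%. Cxcl12 held 25.9% and 27.8% of the sum with DMSO and 26.7% and 26.0% with risperidone, so its share overlapped between the groups while its level fell.

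**Figure D3:**
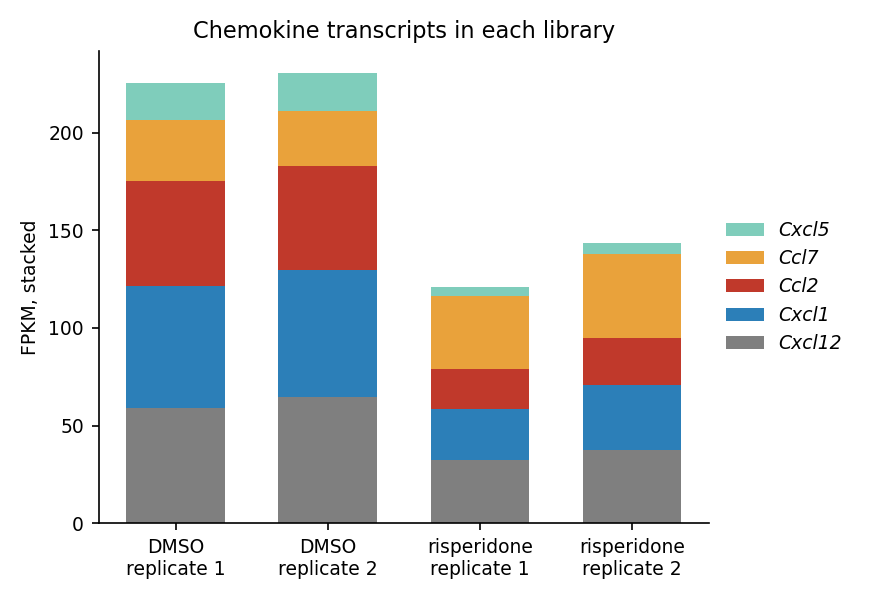
Stacked FPKM of the 5 tested chemokines (vertical axis) in each of the 4 libraries (horizontal axis), without error bars since each bar is 1 library. Bars of the DMSO libraries reach 226 and 231 FPKM and those of risperidone 121 and 144 FPKM, and the Ccl7 band is the only one that is wider with risperidone.

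Below 1 FPKM, the depth limited what could be seen of Cx3cl1, Il6 and Cxcl10, and their fits came from all 16051 genes without a filter, of which 37.5% were called. Cx3cl1 (NCBI Gene 20312, chr8:94772180-94782427) had 59 and 39 counts with DMSO and 16 and 26 with risperidone, with no overlap between the groups. The estimate was -1.12 (SE 0.353), with a normal-approximation 95% interval from -1.81 to -0.43, narrower than the F-test would give. Its adjusted p of 0.0578 in edgeR lay above the threshold. Without risperidone replicate 2 that p was 0.0381, and without DMSO replicate 1 it was 0.362 in edgeR. Il6 (NCBI Gene 16193, chr5:30013114-30019975) had 4 and 6 counts with DMSO and 5 and 5 with risperidone, and the groups overlapped. The estimate of 0.09 (SE 0.667) had a 95% interval, by the same approximation, from -1.22 to 1.39, which includes changes of more than 2-fold in either direction. Cxcl10 (NCBI Gene 15945, chr5:92346638-92348889, minus strand) had 0 and 4 counts with DMSO and 0 and 1 with risperidone. A count of 0 allows up to 3 counts, or 0.183 to 0.189 CPM (counts scaled to a library of 1000000) for counting error alone, and no difference in Cxcl10 was detectable.

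RefSeq promoter sequences of GRCm38.p6 were matched for 6 of the 9 genes, Cxcl1, Cxcl10, Cxcl12, Cx3cl1, Csf1 and Il6, and the 250 bases before the start site were searched on both strands. Not matched were Ccl2, Ccl7 and Cxcl5. The κB consensus, the 10-letter motif of NF-κB, occurred in 4 of these 6 promoters and in 7.25% of all 32851 promoters of that length. Since Cxcl1 and Il6 are well-known NF-κB targets, these shares do not test whether changed members hold more matches. Motifs spelled TGANTCA (AP-1), TTNNGNAA (C/EBP) and TTCNNNGAA (STAT) occurred in 6.75%, 36.8% and 7.02% of all promoters, and the interferon-stimulated response element in 2.98%. Of the members, Cxcl10 held TGANTCA, TTNNGNAA and the interferon-stimulated response element, the last overlapping a C/EBP match, Il6 held TGANTCA and TTNNGNAA, and the STAT motif was found in none of the 6. Stretches of 120 bases follow for the 4 promoters with a κB match and for Cxcl12, in which none of the 5 motifs was found, to set an expressed and lowered gene with the motif (Cxcl1) beside genes with it that were nearly silent (Il6 and Cxcl10), little changed (Csf1) or lowered without a match (Cxcl12). Capitals mark κB matches, overlapping matches being joined, and each line runs 5′ to 3′ on the strand of the gene.
Cxcl1 (chr5:90891115-90891234, plus strand): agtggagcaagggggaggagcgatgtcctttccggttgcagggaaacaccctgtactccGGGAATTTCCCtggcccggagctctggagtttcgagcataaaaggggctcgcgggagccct
Csf1 (chr3:107760564-107760683, minus strand): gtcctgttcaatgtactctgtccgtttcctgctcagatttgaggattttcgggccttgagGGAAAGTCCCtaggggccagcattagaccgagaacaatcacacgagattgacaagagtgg
Il6 (chr5:30012994-30013113, plus strand): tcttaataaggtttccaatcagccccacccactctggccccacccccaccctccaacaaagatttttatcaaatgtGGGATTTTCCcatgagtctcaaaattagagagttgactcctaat
Cxcl10 (chr5:92348933-92349052, minus strand): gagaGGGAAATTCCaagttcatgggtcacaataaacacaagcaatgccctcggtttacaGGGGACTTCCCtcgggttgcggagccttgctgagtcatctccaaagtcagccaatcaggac
Cxcl12 (chr6:117168415-117168534, plus strand): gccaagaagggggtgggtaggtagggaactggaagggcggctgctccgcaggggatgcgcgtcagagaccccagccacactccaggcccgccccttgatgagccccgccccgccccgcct

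The κB match of Cxcl1 runs from -71 to -61 relative to the start site, that of Il6 from -44 to -35 and that of Csf1 from -154 to -145. A match describes the letters only, and its part in the changes was not tested.

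Genes around the chemokines were taken from lists of ligands, receptors and regulators, whose counts stand against 32.2% lower and 32.1% higher among all tested genes. The lists were chosen with earlier results of these data known, so their shares and medians describe the lists and test nothing. Of 19 other CC chemokines, 14 were in the table and 5 were tested, with 2 higher, 0 lower and 3 not called. Ccl9, a ligand of CCR1, had 37 and 30 counts with DMSO and 180 and 162 with risperidone and rose by 2.44 on the log2 scale (SE 0.185), or 1.44 in limma on log2(FPKM + 1), and Ccl25, a ligand of CCR9, rose by 0.44 (SE 0.118), a call that was lost in the 3 limma alternatives, at 0.21 and 0.22 on FPKM and 0.07 on TPM. The 8 other CXC and XC chemokines in the table were all under 1 FPKM, and none was tested. Among 6 tested cytokines and growth factors of leukocytes, 3 were lower, namely Il1rn (-4.13, SE 0.337), which encodes the interleukin-1 receptor antagonist, Kitl (-1.81, SE 0.0599), the stem cell factor, and Ctf1 (-1.69, SE 0.249), cardiotrophin 1 of the interleukin-6 family. The size depended on the fit for the rarer genes, since Il1rn, with 6 and 3 risperidone counts, was at -1.55 in limma on log2(FPKM + 1) and -2.21 on log2(TPM + 1), and Ctf1 at -1.12 on log2(FPKM + 1). The other 3 were higher, namely Clcf1 (0.70, SE 0.101), Tgfb1 (0.41, SE 0.0526) and Cntf (1.11, SE 0.439), and that of Cntf had an adjusted p of 0.0449 in edgeR. Its call was lost in 9 of 13 alternatives, with adjusted p from 0.0018 to 0.323 in edgeR, DESeq2 or limma, and its log2 fold change was 0.51 without DMSO replicate 1 and 2.12 without DMSO replicate 2.

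Receptors for these ligands were mostly near 0. Of 16 listed receptors, 11 were in the table, and Il6ra and Il6st, both parts of the interleukin-6 receptor, were the 2 that were tested. Il6ra had 805 and 691 counts with DMSO and 402 and 430 with risperidone, and fell by 0.75 on the log2 scale (SE 0.0746). Il6st, which encodes gp130, had 6678 and 6347 counts against 7230 and 7520, a log2 fold change of 0.27 (SE 0.0487) that was 0.18 in limma on log2(FPKM + 1), and 0.04 and not called on log2(TPM + 1). The other 9 were at or under 0.39 FPKM in every library, among them Csf1r (0.03 to 0.09 FPKM), the receptor of Csf1, and Cxcr2 (0 to 0.06 FPKM), that of Cxcl1 and Cxcl5. Of 6 tested enzymes that release or trim chemokines, 2 were higher and 3 lower. Adam10 and Adam17, which cut CX3CL1 from the membrane, fell with log2 fold changes of -0.52 (SE 0.0530) and -0.35 (SE 0.0494). Mmp2, which can trim CXCL12, was higher (0.42, SE 0.0634) but at 0.17 and not called in limma on log2(TPM + 1), and Rhbdf2, a partner of ADAM17, was higher too (0.26, SE 0.102), although its call was lost in 10 of 14 alternatives.

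Among regulators, most of the NF-κB feedback genes and targets were lower. Of 13 tested, 10 were lower, 1 was higher and 2 were not called, with a median log2 fold change of -0.66 against 0.00044 over all genes, and without risperidone replicate 2 the counts were 10 lower and 3 higher. Saa3, an acute-phase apolipoprotein, fell from 975 ± 81.9 to 143 ± 7.33 FPKM (SD, n = 2), and Lcn2, the siderophore-binding lipocalin, from 3580 ± 105 to 1200.2 ± 62.8 FPKM (SD, n = 2). Nfkbie, an NF-κB inhibitor (-1.72, SE 0.314), and Irf1, an interferon-regulated transcription factor (-1.002, SE 0.0779), also fell. Nfkbie, with 13 and 24 risperidone counts, was at -0.88 in limma on log2(FPKM + 1), at -1.34 without risperidone replicate 1 and at -2.23 without risperidone replicate 2. Of 21 tested inflammatory receptors and NF-κB activators, 11 were lower, 2 higher and 8 not called, with a median of -0.20. Over all genes 64.3% were called, so the share of called genes on this list is near the background. Tlr2, a receptor of bacterial lipoproteins, had 772 and 786 counts with DMSO and 166 and 199 with risperidone (log2 fold change -2.00, SE 0.0829). Its adaptor Myd88 was lower by a log2 fold change of -1.37 (SE 0.0643), Tlr3, a receptor of double-stranded RNA, of -1.22 (SE 0.134), and the kinase Irak4 of -1.05 (SE 0.142). The 2 higher genes were Ticam1 (0.85, SE 0.0626) and Il1r1 (0.38, SE 0.0544), and Rela and Chuk were among those not called.

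Of 13 tested interferon response genes, 8 were lower, 3 higher and 2 not called, with a median of -0.51. Gbp2, a guanylate-binding protein, fell most (309 and 301 counts against 32 and 45, log2 fold change -2.89, SE 0.172), followed by Oasl2 (-1.56, SE 0.202) and Irf7 (-1.03, SE 0.289), while Ifit2 rose (1.36, SE 0.0741). Irf7 was not called in DESeq2 or without DMSO replicate 1 (log2 fold change -0.88), and in limma on log2(FPKM + 1) Irf7 was at -0.56 and Oasl2 at -0.93. Of 9 tested genes that control the decay of cytokine mRNA, 4 were higher, 1 lower and 4 not called, with a median of 0.038. Tia1, a translational silencer, fell (-1.02, SE 0.0521). Zfp36l1 (0.33, SE 0.0738) and Zfp36l2 (0.29, SE 0.0538), which promote the decay of AU-rich mRNAs, and Elavl1 (0.26, SE 0.0547), which stabilizes them, were higher, and none of these 3 was called in limma on log2(TPM + 1), nor Elavl1 in limma on FPKM with either pseudocount.

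**Figure D4:**
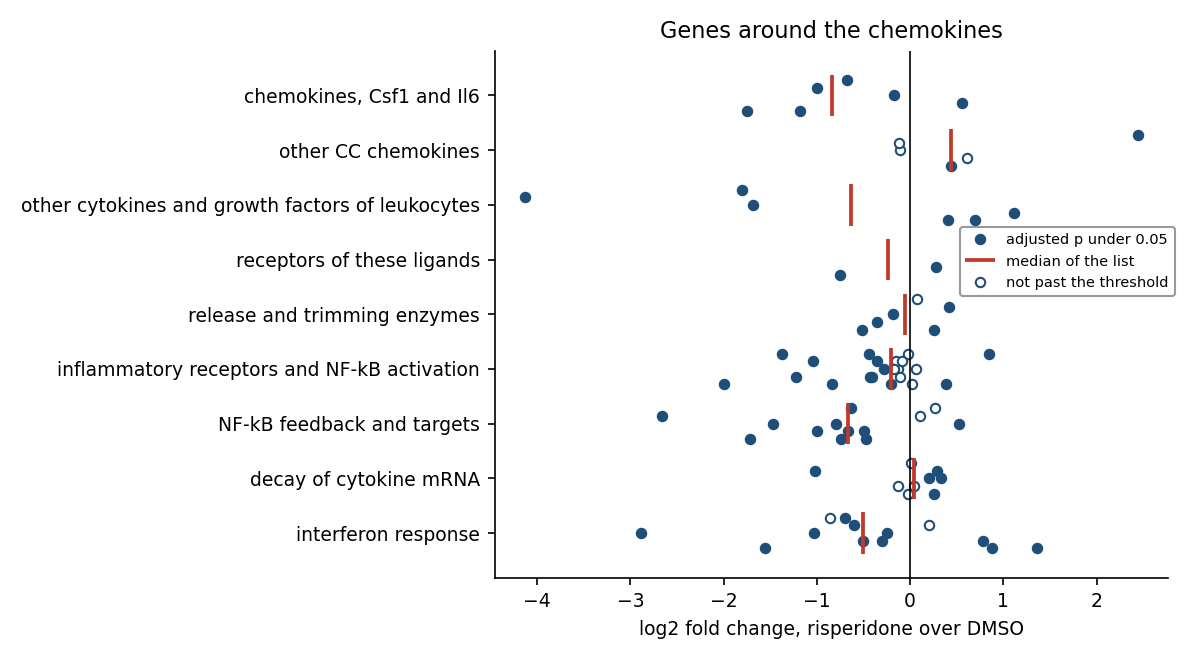
Log2 fold change of risperidone over DMSO (horizontal axis) of every tested gene in 9 gene lists (vertical axis), with filled points at an adjusted p under 0.05, open points above it and a vertical line at the median of each list; vertical scatter within a list has no meaning. The medians of the chemokine list (-0.84) and of the NF-κB targets (-0.66) lie left of 0, and that of the other CC chemokines (0.44) to the right.

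Cell type markers were read in the same way, against 32.1% higher and 32.2% lower among all tested genes. Among adipocyte markers, 3 of 4 tested were lower (Fabp4 -1.09, SE 0.120; Plin4 -0.75, SE 0.0779; and Lpl -0.24, SE 0.0508) and 1, Pparg, was not called. Of 10 tested preadipocyte and fibroblast markers, 4 were higher and 3 lower, shares near that background. Higher were Dlk1 (1.52, SE 0.0544), Ly6a (1.20, SE 0.357), Thy1 (1.05, SE 0.0546) and Col1a1 (0.99, SE 0.0523), the call of Ly6a resting on risperidone replicate 2. Gas1 (-2.70, SE 0.0694), Col3a1 (-0.96, SE 0.0532) and Pdgfrb (-0.50, SE 0.0646) were lower. Of the macrophage markers, Cd68 was higher (1.19, SE 0.194) and Cd14 lower (-0.35, SE 0.0997), a call that was lost in DESeq2 and without DMSO replicate 2 (-0.27). Cd74 was not called (-0.22, SE 0.271), with 100 and 117 counts with DMSO and 58 and 116 with risperidone, replicate 2 being the higher. Fcgr1, under the limit for testing over the 4 libraries, had 64 and 69 counts with DMSO and 0 and 1 with risperidone. The sum of the macrophage list was 22.9 and 26.8 FPKM with DMSO and 20.4 and 23.7 FPKM with risperidone. S100a8, the 1 tested gene of the neutrophil and T cell list, was lower (42 and 56 counts against 12 and 13, -1.87, SE 0.309), while Cxcr2, Csf3r and Ly6g lay between 0 and 0.08 FPKM. The part of these shifts in the chemokine changes was not tested.

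Within the risperidone group, replicate 2, the library with kidney transcripts, was higher than replicate 1 for each of the 6 tested members, by 1.08 times for Csf1 to 1.29 times for Cxcl1 in FPKM. Over all tested genes the median of this ratio was 1.01. Between the DMSO libraries the ratio of replicate 2 to replicate 1 ran from 0.915 for Ccl7 to 1.10 for Cxcl12. Without risperidone replicate 2 the log2 fold changes were -1.88 for Cxcl5, -1.30 for Ccl2, -1.19 for Cxcl1, -0.77 for Cxcl12, -0.22 for Csf1 and 0.45 for Ccl7, and all 6 remained past the threshold in edgeR. The falls were thus at least as large without that library, and the rise of Ccl7 was smaller.

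By profile over the 4 libraries, the genes closest to each member were sought among the other tested genes averaging 5 FPKM or more, by the root mean square difference of log2(FPKM + 1) after centring each gene on its mean. Closest to Ccl2 were Gm46911 (0.0074), Sned1 (0.0105) and Ap3d1 (0.0149), in log2 units, and closest to Ccl7 were Stard4 (0.0134), Syne3 (0.0159) and Ccnd1 (0.0199). Cxcl1 lay nearest to Rbm4 (0.0288) and Cxcl5 to Tra2a (0.0336) and Idh1 (0.0568). Cxcl12 had Tmem38a (0.0174) as its nearest gene, and Csf1 had Arel1 (0.0022), Zkscan1 (0.0055) and Tsc2 (0.0068). With 4 libraries in 2 groups, many genes share such a profile, and closeness here describes these libraries only.

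**Figure D5:**
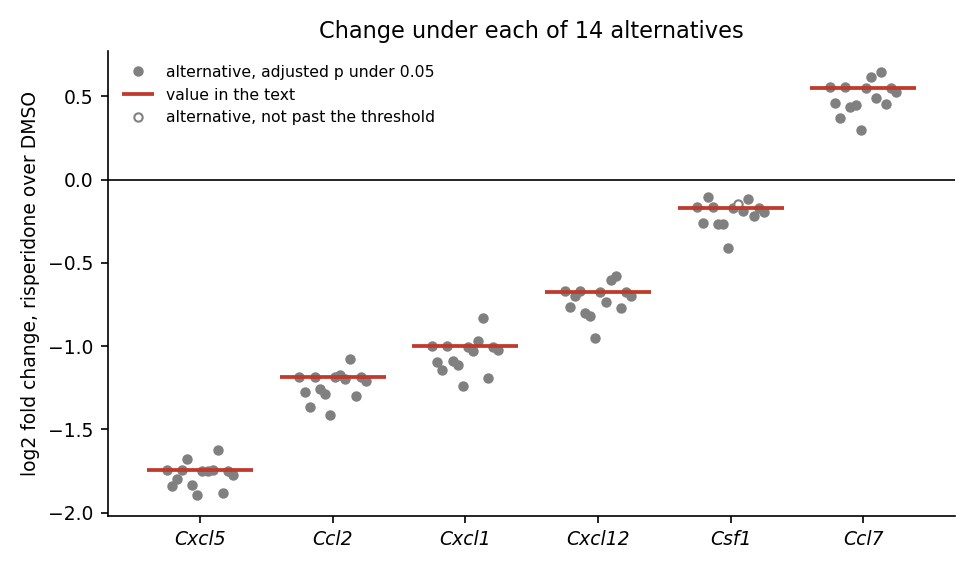
Log2 fold change of risperidone over DMSO (vertical axis) of the 6 tested genes (horizontal axis) under 14 alternative filters, scalings, tools and left-out libraries (points, open where the adjusted p was above 0.05), with a line at the value given in the text. All points lie on the same side of 0 as the line, and the single open point is that of Csf1 without DMSO replicate 1.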

How the data were processed

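Per the authors, reads from MGISEQ-2000 were cleaned of adaptors, poly-N and low-quality reads and mapped, and FPKM was computed on their DC.TOM platform. The submitters' processing notes name Bowtie2, RSEM, DESeq2 and GRCm38.p6, without versions or roles. The deposited table holds estimated counts (expected counts, not normalized), the authors' FPKM, and the authors' TPM, which sum to 1000000 per library, with means per group that were not used. Counts were rounded. The test, edgeR 4.0.16 under R 4.3.3 (TMM factors between 0.963 and 1.03, quasi-likelihood F-test), took the 10243 genes averaging 1 FPKM or more, with Benjamini-Hochberg adjustment over them and a threshold of 0.05. The SE was derived from the fold change and the F statistic. The common biological coefficient of variation was 0.0468.

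The members and gene lists were chosen with earlier results of these data known. Named genes were all 9 members, up to 4 called genes of each list with the largest change, and the 3 genes nearest to each member, of which some are left out here. Genes beside the chemokines on the chromosomes, further genes of the cytokine and NF-κB lists, marker genes (Fcgr1 among them) and receptors at or near 0 were named by position, role or direction after their values were seen. Positions and promoters came from RefSeq (GRCm38.p6), exons from GENCODE M21. Alternatives were no filter, a mean of at least 5 FPKM, RLE and library size scaling, an offset for gene length (from counts over FPKM), DESeq2 1.42.0, limma 3.58.1 on log2(FPKM + 1), log2(FPKM + 0.1) and log2(TPM + 1), a replicate block, each library left out, and a limit of 1 on the size of the log2 fold change. No batch is given in the labels, so no value within batches was computed. The tools were tested on simulated data. Tables and figures were made with Python 3.11.15, pandas 2.3.3, scipy 1.17.1 and matplotlib 3.10.9.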

Additional observations from a re-analysis of the deposited data

How the results depend on the processing

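All 6 tested members kept their direction under all 14 alternatives, and 5 of them kept their call in each. Csf1 lost its call without DMSO replicate 1, and its log2 fold change ranged from -0.22 to -0.12 with each library left out. A limit of 1 on the size of the log2 fold change left 3 members (3 lower, 0 higher), 668 of all genes (267 higher and 401 lower) and 31 genes of the other lists. Limma on log2(TPM + 1) gave 1536 higher and 5292 lower genes and shifted the median of all genes by -0.22 on the log2 scale, and relative to it the direction of the 6 members was unchanged. Fitted without a filter and with all libraries kept, Cx3cl1 passed the threshold with library size scaling (-1.21), the offset for gene length (-1.10) and a replicate block (-1.12). In limma it was at -0.48 on log2(FPKM + 1) and at -0.76 on log2(TPM + 1), not called on either. Its adjusted p ran from 0.0009 in edgeR with the replicate block to 0.0874 in limma on log2(FPKM + 0.1). With each library left out, Cx3cl1 lay between -1.49 and -0.82. Il6 changed sign with library size scaling (-0.0022) and in limma on log2(TPM + 1) (-0.049), and ranged from -0.18 to 0.42 with each library left out, as Cxcl10 did from -4.05 to 2.35. Slc34a1, a kidney marker, ranged from -0.31, without risperidone replicate 2, to 7.47 with each library left out. The cause of these changes was not tested. Same-numbered libraries did not deviate together (correlation -0.060 over 10243 genes) and share only a number. The replicate block gave 3292 higher and 3321 lower genes against 3287 and 3303, and apart from Cx3cl1 changed no member's call. DESeq2 gave no adjusted p for Il6 and Cxcl10, and the length offset had no length for them.
Depth limited Il6 and Cxcl10, with at most 6 counts in a library.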
